A study of Homo sapiens with 6 samples.

Results

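Desmosomes are the junctions that tie the keratin filaments of neighbouring epithelial cells together, and the RNA levels of 10 genes of this junction were compared between control and PAX9-depleted breast epithelial cells. The 10 genes were the desmocollins DSC2 and DSC3, the desmogleins DSG2 and DSG3, the plaque genes JUP, PKP1, PKP3 and DSP, the membrane gene PERP and the corneodesmosome gene CDSN. They were found by exact match of symbol among the 26822 gene symbols of the deposited table, and all 10 were present. These genes, and the gene lists used below, were chosen with earlier results of these data known. Counts of their members beside all genes are therefore descriptions only. The study examined MCF10A, an established, non-tumorigenic line of human breast epithelial cells, at 72 h after transfection with 30 nM siRNA. The control group (siNT, 3 samples) received non-targeting siRNA and the other group (siPAX9, 3 samples) received siRNA against PAX9, a transcription factor of the paired-box family. Both groups carried siRNA and transfection reagent, and both grew in the same medium with horse serum, epidermal growth factor, hydrocortisone, cholera toxin and insulin. A single cell line was used, and the effects of losing PAX9 and any other effects of the siRNA cannot be told apart here.

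In a desmosome, desmocollins and desmogleins are cadherins that bind each other across the gap between cells. Inside the cell their tails bind plakoglobin (JUP) and the plakophilins, and these hold desmoplakin (DSP), which anchors the keratin filaments. In the upper layers of stratified epithelia, corneodesmosin (CDSN) is added to the outer face of the junction, which is then called a corneodesmosome and is cut by proteases when cells are shed. The partner cadherins are known to change with the layer of the epithelium, and DSC2 and DSG2 are the widespread forms that simple epithelia also carry.

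The table held 1 FPKM (fragments counted per kilobase of transcript and scaled for the reads that mapped) for each group and gene, a level scaled to transcript length, with the 3 samples of a group already combined. No value per sample was analysed here, so no spread between samples and no test could be computed, the number of reads behind a value is unknown, and every difference below is a description of these combined libraries. PAX9 itself was at 2.80 FPKM in siNT and 0.325 FPKM in siPAX9, a log2 ratio of -3.10, at a locus that it shares with SLC25A21 on the opposite strand. In bulk RNA, fewer cells of a type and less RNA per cell cannot be told apart.

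The starts of the desmosomal cadherin genes and of PERP are shown first, because neighbouring cadherin genes differed in their ratios and PERP was the most abundant of the 10. Each sequence is the RefSeq window from 250 bases before to 50 bases after the annotated start, read 5′ to 3′ on the strand of the gene in GRCh38.p14. DSC2 lies at chr18:31102372-31102671 and DSC3 at chr18:31042693-31042992, both on the minus strand. DSG3 lies at chr18:31447491-31447790 and DSG2 at chr18:31497927-31498226, both on the plus strand, and PERP lies at chr6:138107370-138107669 on the minus strand. Capitals mark matches on either strand to the AP-1 letters TGANTCA, the GC box GGGCGG and the KLF letters CACCC. On the other strand a GC box reads CCGCCC, and the KLF letters then read GGGTG.
DSC2: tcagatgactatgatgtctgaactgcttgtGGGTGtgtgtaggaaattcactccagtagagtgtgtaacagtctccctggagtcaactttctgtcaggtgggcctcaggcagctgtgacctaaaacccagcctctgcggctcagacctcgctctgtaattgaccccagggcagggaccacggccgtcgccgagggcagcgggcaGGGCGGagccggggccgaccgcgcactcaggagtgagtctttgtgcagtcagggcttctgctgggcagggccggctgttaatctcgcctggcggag
DSC3: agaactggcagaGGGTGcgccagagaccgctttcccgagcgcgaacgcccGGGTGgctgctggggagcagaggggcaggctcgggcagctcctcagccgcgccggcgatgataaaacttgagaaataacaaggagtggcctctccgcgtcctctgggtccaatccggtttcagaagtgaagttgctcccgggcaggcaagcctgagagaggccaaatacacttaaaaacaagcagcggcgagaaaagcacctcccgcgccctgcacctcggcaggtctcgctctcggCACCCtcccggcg
DSG3: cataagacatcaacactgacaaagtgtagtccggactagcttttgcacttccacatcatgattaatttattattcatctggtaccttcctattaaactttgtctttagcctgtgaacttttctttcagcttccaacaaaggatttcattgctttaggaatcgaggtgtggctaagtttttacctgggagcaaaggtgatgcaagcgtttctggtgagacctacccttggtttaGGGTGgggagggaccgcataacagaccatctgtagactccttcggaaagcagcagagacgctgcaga
DSG2: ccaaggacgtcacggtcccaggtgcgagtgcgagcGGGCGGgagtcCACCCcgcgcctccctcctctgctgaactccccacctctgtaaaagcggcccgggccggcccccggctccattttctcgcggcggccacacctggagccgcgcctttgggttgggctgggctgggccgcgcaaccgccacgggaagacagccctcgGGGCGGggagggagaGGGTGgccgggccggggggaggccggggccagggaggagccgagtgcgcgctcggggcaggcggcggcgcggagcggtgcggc
PERP: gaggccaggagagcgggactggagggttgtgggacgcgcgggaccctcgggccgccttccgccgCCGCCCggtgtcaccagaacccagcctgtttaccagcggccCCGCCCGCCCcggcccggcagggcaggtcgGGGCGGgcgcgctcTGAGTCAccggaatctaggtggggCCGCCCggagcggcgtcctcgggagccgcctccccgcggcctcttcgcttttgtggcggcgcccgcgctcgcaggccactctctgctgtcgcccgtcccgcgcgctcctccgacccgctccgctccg

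Windows were found for 9 of the 10 genes, all but PKP3, at the start of the canonical transcript, and were read beside all 35116 windows of the RefSeq table. The GC content was 44% for DSG3, the lowest of the 5 windows shown, and 76.7% for its neighbour DSG2, against a median of 58.7% over all windows. DSC2 (60.7%) and DSC3 (63.3%) were close to each other, and PERP was at 77.0%. The GC box was present in 6 of the 9 windows, those of DSC2, DSG2, JUP, PKP1, DSP and PERP, against 45.0% of all windows. The KLF letters were present in 8 of the 9, all but PERP, against 59.9% of all windows. The AP-1 letters occurred in the PERP window alone, from 101 to 95 bases before the start, and in 7.71% of all windows. The GRHL letters AACCNGTT, the TATA letters TATAAA, and the paired-domain core GCGTGAC were in 0 of the 9 windows, and in 1.73%, 11.5% and 2.52% of all windows. No match of one motif overlapped a match of another in the 9 windows. A match is a run of letters, not a binding site, and no match says only that these letters are not in this window.

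Of the 10 genes, 8 had a higher level in siPAX9 than in siNT and 2 a lower one. DSC2, DSG3, PERP, CDSN and PKP1 were at least 2-fold higher in siPAX9 (5 of 10), none was at least 2-fold lower, and the median log2 ratio of the 10 was 0.98. Over all 18462 genes with a value above 0 in both groups, 13.7% were at least 2-fold higher, 8.15% were at least 2-fold lower, and the median log2 ratio was 0.0065. PKP1 was under 1 FPKM in both groups, and CDSN reached a mean of 1 FPKM only through siPAX9. Among the 13264 genes with a mean of at least 1 FPKM over the groups, 6.82% were at least 2-fold higher (904 genes) and 6.90% at least 2-fold lower (915 genes), with a median log2 ratio of -0.071. Scaling both groups to the same summed FPKM moved log2 ratios up by 0.19 and made these 1214 genes (9.15%) and 629 genes (4.74%). Centring on the median moved them up by 0.071, to 7.52% and 6.02%. The number of the 10 genes at least 2-fold higher was 6 after centring, beside 14.8% of the 18462, and 6 after scaling, beside 17.0%, with JUP as the added gene both times. It was 4 with 0.1 added to each FPKM, beside 8.02%, and 3 with 1 added (DSC2, DSG3 and PERP), beside 3.28%. At a fold of 1.5, 7 of the 10 were higher, beside 22.2%, and at a fold of 4 it was PKP1 alone, beside 5.75%. DSG3, with a log2 ratio of 1.01, lay just inside the 2-fold line and JUP, at 0.95, just outside it.

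**Figure D1:**
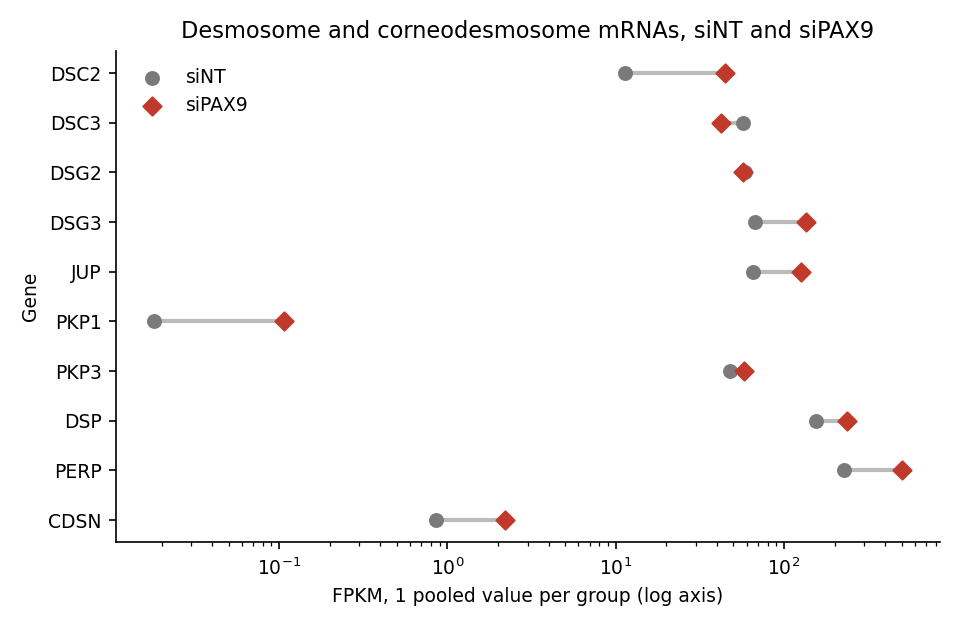
Level of each of the 10 genes in siNT and siPAX9 in FPKM on a log axis, with 1 combined value per group and therefore no error bars. DSC2, at 11.3 FPKM in siNT and 44.8 FPKM in siPAX9, shows the widest step among the genes above 1 FPKM in both groups, and DSG2 shows almost none.

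The plot of levels by group shows the order of the genes as well as the steps. In siNT the order from the highest level was PERP, DSP, DSG3, JUP, DSG2, DSC3, PKP3, DSC2, CDSN and PKP1. In siPAX9 it was PERP, DSP, DSG3, JUP, PKP3, DSG2, DSC2, DSC3, CDSN and PKP1. PERP, DSP, DSG3 and JUP led and CDSN and PKP1 came last in both groups. Whether neighbours in either order differ beyond their spread could not be judged from 1 value per group.

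DSC2, the desmocollin of wide tissue distribution, was at 11.3 FPKM in siNT and 44.8 FPKM in siPAX9, which was 3.96-fold higher (log2 ratio 1.98). This ratio was above that of 97.7% of the expressed genes, those with a mean of at least 1 FPKM. Its level in siNT was above that of 50.9% of the expressed genes and its level in siPAX9 above that of 87.2%. The gene lies on chromosome 18 from 28638806 to 28682485 in GRCh37, the coordinates of UCSC hg19, on the minus strand with 16 exons in its canonical transcript. Of the 12331 bases of that transcript, 554 are shared with RP11-408H20.1 on the same strand.

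DSC3, a desmocollin of stratified epithelia, was at 57.5 FPKM in siNT and 42.3 FPKM in siPAX9. The log2 ratio of -0.44 made it the lowest of the 10 genes, and 23.1% of the expressed genes had a lower ratio. DSC3 (28569331 to 28622781 on chromosome 18, minus strand, 16 exons) is the next gene to DSC2, and the pair differed in direction.

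DSG3, a desmoglein of the basal layers and the autoantigen of pemphigus vulgaris, was at 67.2 FPKM in siNT and 136 FPKM in siPAX9, which was 2.02-fold higher. DSG2, the widespread desmoglein, was at 58.4 FPKM in siNT and 57.5 FPKM in siPAX9, a log2 ratio of -0.022 that became 0.049 after centring and 0.17 after scaling to equal sums. In siNT the desmoglein levels were close, with a DSG3 to DSG2 ratio of 1.15, and in siPAX9 the ratio was 2.36. DSG3 has 16 exons from 29027704 to 29058665 and DSG2 has 15 exons from 29078140 to 29128971, both on the plus strand of chromosome 18. The antisense gene DSG2-AS1, which covers 186 of the exon bases of DSG2 (3.26%), was at 7.46 FPKM in siNT and 2.29 FPKM in siPAX9. Whether the counting used strand is not given in the sources used here, so reads in the shared bases cannot be told apart.

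The remaining desmosomal cadherins, DSC1, DSG1 and DSG4, are forms of the upper epidermis and the hair. DSC1 was listed at 0 FPKM in both groups, while DSG1 was listed at 0 in siNT and at 0.0540 FPKM in siPAX9. DSG4 was likewise listed at 0 in siNT and at 0.0218 FPKM in siPAX9. The cadherin pool at RNA level was thus made of the 4 genes DSC2, DSC3, DSG2 and DSG3.

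**Figure D2:**
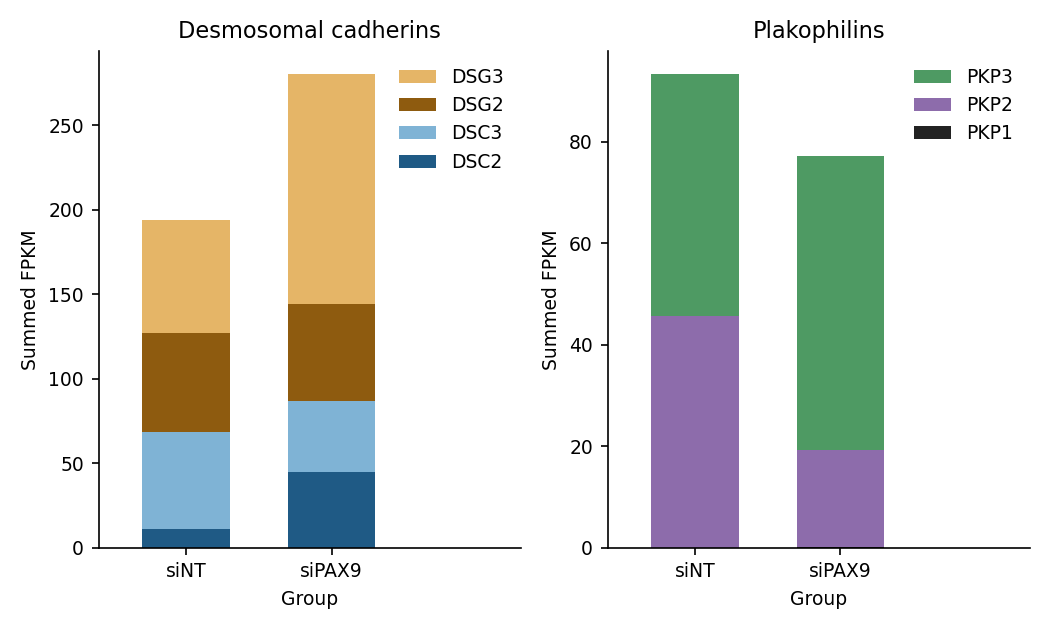
Stacked bars of the summed FPKM of the 4 desmosomal cadherins (left) and of PKP1, PKP2 and PKP3 (right) in siNT and siPAX9, 1 combined value per gene and group, with separate vertical scales. The cadherin bar is taller in siPAX9 (280 against 194 FPKM) with more DSC2 and DSG3 in it, and the plakophilin bar is shorter (77.2 against 93.3 FPKM) with less PKP2, while PKP1 is too low to be seen.

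Because FPKM is scaled to transcript length, levels could be added and compared between genes, as the stacked bars do. DSC2 made up 16.5% of the desmocollin FPKM in siNT and 51.4% in siPAX9. The level of DSC3 was 5.08 times that of DSC2 in siNT and 0.944 times in siPAX9, so the desmocollin of higher level was DSC3 in siNT and DSC2 in siPAX9. Scaling one group against the other cannot move these shares, since both genes come from the same libraries. The desmocollin total was 68.8 FPKM in siNT and 87.1 FPKM in siPAX9, and the desmoglein total was 126 FPKM and 193 FPKM, of which DSG3 made up 53.5% and 70.2%. Among all 4 cadherins, which summed to 194 FPKM in siNT and 280 FPKM in siPAX9 (1.44-fold), DSG3 held the largest share in both groups, 34.6% and 48.4%.

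**Figure D3:**
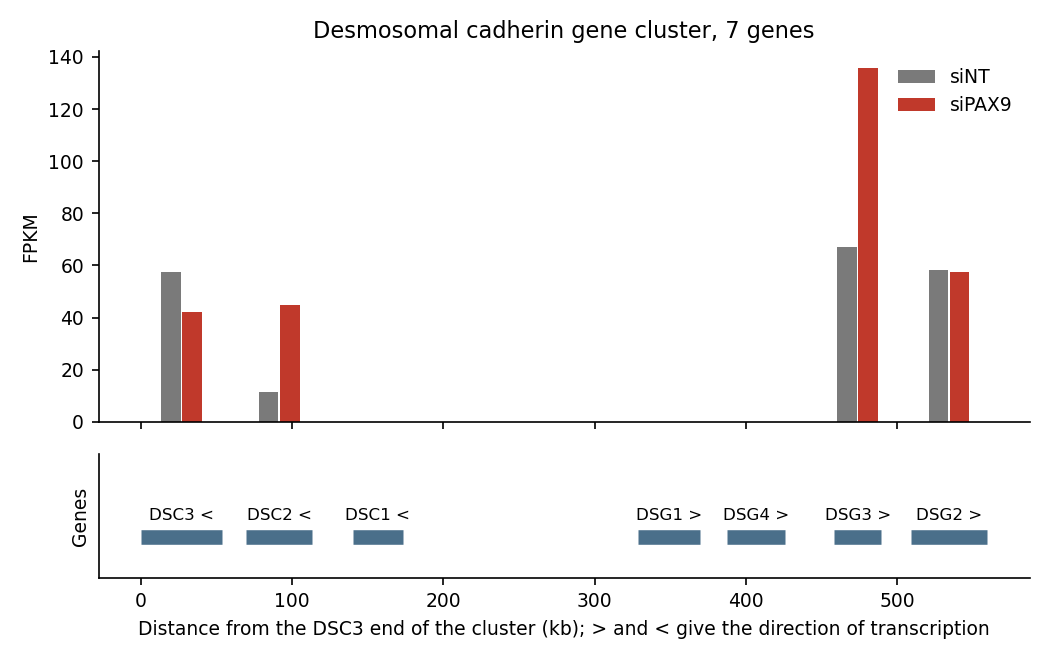
Positions of the 7 desmosomal cadherin genes along their cluster on chromosome 18, in kb from its first base, with the FPKM in siNT and siPAX9 for each gene. The genes at the outer ends, DSC3 with DSC2 and DSG3 with DSG2, carry nearly all of the signal, and DSC1, DSG1 and DSG4 between them lie at 0.0540 FPKM or less.

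The cadherin genes form 1 cluster of 7 genes over 560 kb, from 28569331 to 29128971 on chromosome 18, and the plot along the cluster shows where the levels lay. The desmocollins DSC3, DSC2 and DSC1 are on the minus strand, followed after 155 kb by DSG1, DSG4, DSG3 and DSG2 on the plus strand. DSC3 and DSC2 are 16.0 kb apart, and DSG3 and DSG2 are 19.5 kb apart. In each of these neighbouring pairs 1 gene was at least 2-fold higher in siPAX9 (DSC2 and DSG3) and the other was not (DSC3 and DSG2). The RNA gene DSCAS in the cluster was at 0.0779 FPKM in siNT and listed at 0 in siPAX9.

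In the plaque, JUP, which encodes plakoglobin, the link shared by desmosomes and adherens junctions, was at 65.2 FPKM in siNT and 126 FPKM in siPAX9. Its ratio of 1.94 was above that of 93.2% of the expressed genes and reached a log2 ratio of 1.02 after centring and 1.15 after scaling to equal sums. DSP, the desmoplakin gene, was at 154 FPKM in siNT and 239 FPKM in siPAX9, a ratio of 1.55 and a higher ratio than 87.9% of the expressed genes. JUP has 14 exons on chromosome 17 from 39910856 to 39943183, minus strand, and DSP has 24 exons on chromosome 6 from 7541571 to 7586947, plus strand.

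Among the plakophilins, which cluster the cadherins at the plaque, PKP3 was at 47.6 FPKM in siNT and 57.9 FPKM in siPAX9 (ratio 1.22). PKP1, the plakophilin of suprabasal epidermis, was at 0.0180 FPKM in siNT and 0.106 FPKM in siPAX9. Its ratio of 5.92 was the highest of the 10 genes but came from levels near 0, and with 1 added to each FPKM its log2 ratio was 0.12. PKP2, the plakophilin of simple epithelia and heart, was at 45.6 FPKM in siNT and 19.2 FPKM in siPAX9 (log2 ratio -1.25). PKP4 was at 17.5 FPKM in siNT and 11.5 FPKM in siPAX9. The PKP3 to PKP2 ratio was 1.04 in siNT and 3.02 in siPAX9, and the PKP2 share of the summed PKP1, PKP2 and PKP3 level was 48.9% and 24.9%. That sum was lower in siPAX9, at 93.3 FPKM in siNT and 77.2 FPKM in siPAX9. PKP3 has 13 exons on chromosome 11 from 392614 to 404908, and PKP1 has 14 exons on chromosome 1 from 201252580 to 201302121, both on the plus strand.

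The summed level of JUP, DSP, PKP1 and PKP3 was 267 FPKM in siNT and 423 FPKM in siPAX9, which was 1.58-fold, beside 1.44-fold for the 4 cadherins. With PKP2 in the sum, a choice made after the data were seen, the plaque total was 313 FPKM in siNT and 442 FPKM in siPAX9, which was 1.41-fold, so the order of plaque and cadherins depended on it. JUP made up 24.4% of the plaque sum in siNT and 29.8% in siPAX9 without PKP2, and 20.8% and 28.6% with it. The DSP share was 57.8% and 56.4% without PKP2, and 49.4% and 53.99% with it. The DSP to JUP ratio was 2.37 in siNT and 1.89 in siPAX9, and the ratio of summed cadherins to JUP was 2.98 and 2.22.

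PERP, a tetraspan membrane protein of the desmosome, had the highest level of the 10 genes, 229 FPKM in siNT and 505 FPKM in siPAX9. It was 2.21-fold higher in siPAX9, a ratio above that of 94.8% of the expressed genes, and its mean level was above that of 98.6% of them. The ratio of PERP to DSP was 1.48 in siNT and 2.12 in siPAX9. PERP has 3 exons on chromosome 6 from 138409642 to 138428556, minus strand, and its start is the window with the AP-1 letters printed above.

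CDSN, which encodes corneodesmosin, was at 0.855 FPKM in siNT and 2.21 FPKM in siPAX9, which was 2.59-fold higher, or a log2 ratio of 0.79 with 1 added to each FPKM. Its mean level was above that of only 5.32% of the expressed genes, so it was the least abundant of the 9 genes with a mean of at least 1 FPKM. CDSN has 2 exons on chromosome 6 from 31082864 to 31088223, minus strand, and 2394 of its 2555 exon bases (93.7%) are also exon of PSORS1C1 on the plus strand. PSORS1C1 was at 1.45 FPKM in siNT and 1.94 FPKM in siPAX9 (1.34-fold), and without the strand of counting the reads of this pair cannot be told apart. Of the other neighbours, PSORS1C2 was at 0.423 FPKM in siNT and 1.19 FPKM in siPAX9, CCHCR1 at 4.31 and 3.36 FPKM, and TCF19 at 3.54 and 1.67 FPKM. C6orf15 was listed at 0 in siNT and at 0.0962 FPKM in siPAX9. CDSN was listed on 6 rows, and the 5 on alternative haplotypes of chromosome 6 were at 0.

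**Figure D4:**
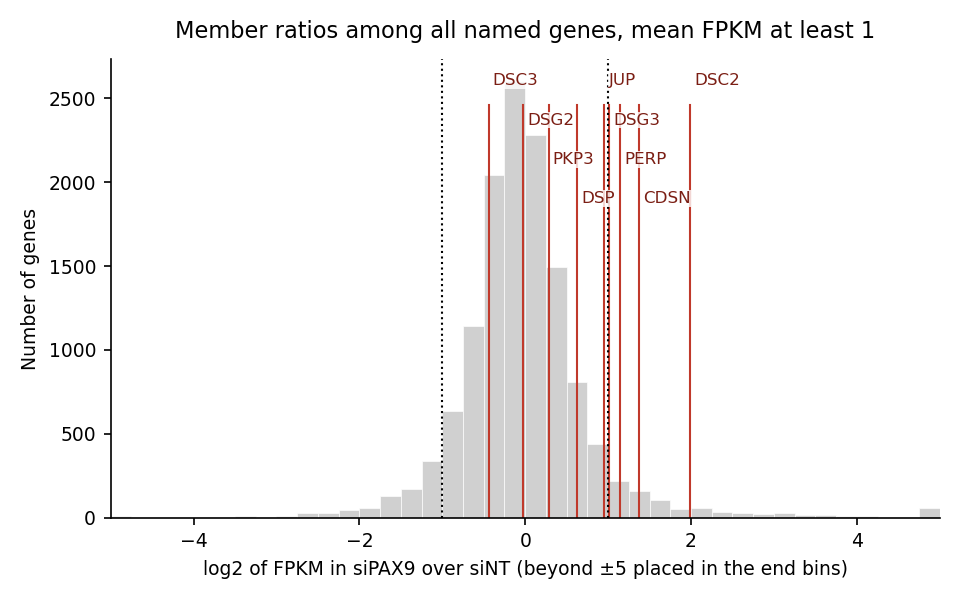
Histogram of the log2 ratio of FPKM in siPAX9 over siNT for the 13264 genes with a mean of at least 1 FPKM, with the 9 desmosome genes that pass this limit marked by red vertical lines and 2-fold by dotted lines. DSC2 lies at 1.98, beyond the value of 1.87 that 2.5% of all genes exceeded, and DSC3 at -0.44 lies below the 25th percentile at -0.41.

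The histogram places the 9 genes with a mean of at least 1 FPKM among all others. The middle of the distribution, from its 25th to its 75th percentile, ran from -0.41 to 0.28, and DSG2 (-0.022) and PKP3 (0.28) lay within it. DSP (0.63), JUP (0.95), DSG3 (1.01) and PERP (1.14) lay between the 75th percentile and the 95th, at 1.18. CDSN (1.37) and DSC2 (1.98) lay above the 95th percentile. DSC3 (-0.44) lay just below the 25th.

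**Figure D5:**
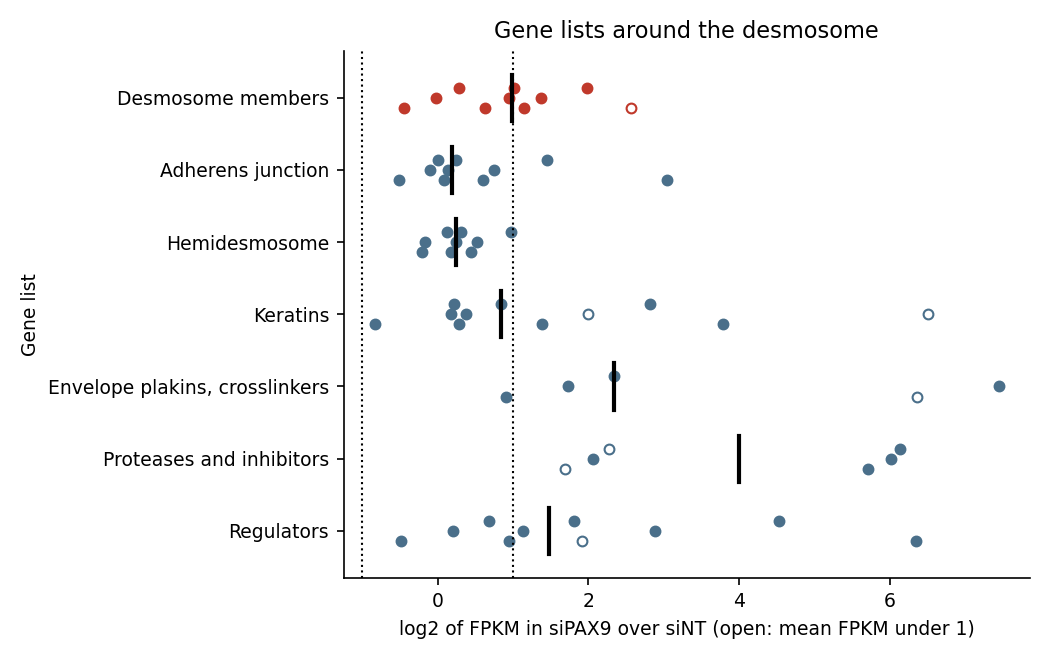
Log2 ratio of FPKM in siPAX9 over siNT for each gene with a value above 0 in both groups, by gene list, with filled points for a mean of at least 1 FPKM, open points for lower means, black bars for list medians and dotted lines at 2-fold. The 9 hemidesmosome genes all lie between the dotted lines, and all 6 corneodesmosome proteases and inhibitors lie to the right of them.

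Genes around the desmosome were counted by role, and the plot by gene list shows each of them. The counts are to be read against the 13.7% of all 18462 genes that were at least 2-fold higher and the 8.15% that were at least 2-fold lower. Of 10 adherens junction genes, 7 were higher and 3 lower, with a median log2 ratio of 0.19 and 2 at least 2-fold higher. All 10 had a mean of at least 1 FPKM, and among such genes 6.82% were at least 2-fold higher. The 2 were CDH1, or E-cadherin, at 45.3 FPKM in siNT and 124 FPKM in siPAX9, and NECTIN4, at 1.29 FPKM and 10.6 FPKM. Of 9 hemidesmosome genes, which anchor the cell to the matrix below, 0 passed 2-fold in either direction, and their median was 0.25. Of the 4 sheddases that can cut the cadherins, ADAM9 was at 59.3 FPKM in siNT and 45.1 FPKM in siPAX9, ADAM10 at 31.7 and 36.4 FPKM, ADAM15 at 92.6 and 97.0 FPKM, and ADAM17 differed by a ratio of 1.02, so that 0 of 4 passed 2-fold.

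The keratins are the filaments that desmoplakin holds, and of 11 measured, 5 were at least 2-fold higher in siPAX9 (13.7% of all genes) and 0 at least 2-fold lower (8.15% of all genes). KRT16 was at 12.7 FPKM in siNT and 175 FPKM in siPAX9, KRT10 at 21.0 and 148 FPKM, and KRT6A at 368 and 959 FPKM. The others, KRT1 and KRT19, had means under 1 FPKM. KRT1 was at 0.0120 FPKM in siNT and 1.09 FPKM in siPAX9, and KRT19 at 0.0258 and 0.103 FPKM. With 1 added to each FPKM, their log2 ratios were 1.05 for KRT1 and 0.10 for KRT19. KRT18, named after its values were seen, was the single keratin with a lower level in siPAX9, at 212 FPKM in siNT and 119 FPKM in siPAX9. The cornified envelope is built on desmosomal plaques, and of the 5 plakin, transglutaminase and involucrin genes with a value above 0 in both groups, 4 were at least 2-fold higher in siPAX9 (13.7% of all genes). Periplakin (PPL) was at 21.1 FPKM in siNT and 70.1 FPKM in siPAX9, envoplakin (EVPL) at 7.96 and 14.95 FPKM, and TGM1 at 10.6 and 53.6 FPKM. Involucrin (IVL) was at 0.0910 FPKM in siNT and 15.8 FPKM in siPAX9, TGM5 at 0.00583 and 0.478 FPKM, and TGM3 was listed at 0 in siNT and at 0.0101 FPKM in siPAX9.

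All 6 genes listed for the proteases that cut corneodesmosomes and their inhibitors were at least 2-fold higher in siPAX9, beside 13.7% of all genes, with levels under 1 FPKM in siNT for each. With 1 added to each FPKM, 4 of the 6 were (3.28% of all genes), without KLK14 and SPINK5, and with 0.1 added 5 were (8.02% of all genes), without KLK14. With 1 added, 4 of the 11 keratins, 3 of the 5 envelope genes and 4 of the 10 transcription factors described next were at least 2-fold higher, settings chosen after seeing the data. The kallikrein KLK7 was at 0.394 FPKM in siNT and 25.5 FPKM in siPAX9, KLK5 at 0.128 and 8.97 FPKM, and KLK14 at 0.0272 and 0.0881 FPKM. The cathepsin CTSV was at 0.562 FPKM in siNT and 2.35 FPKM in siPAX9. The inhibitor SPINK6 was at 0.0556 FPKM in siNT and 2.92 FPKM in siPAX9, and SPINK5 at 0.311 and 1.51 FPKM. KLK7 in siPAX9 was thus above CDSN in FPKM, and in siNT it was below it.

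Of 10 transcription factors with known roles in epithelial differentiation, 6 were at least 2-fold higher (13.7% of all genes) and 0 at least 2-fold lower (8.15% of all genes). The sixth, GRHL2, was near 0, at 0.00380 FPKM in siNT and 0.0143 FPKM in siPAX9. Of the 5 with a mean of at least 1 FPKM, OVOL1 was at 0.0497 FPKM in siNT and 4.02 FPKM in siPAX9 and ZNF750 at 0.222 and 5.12 FPKM. OVOL1 and ZNF750 reached that mean only through siPAX9. GRHL3 was at 2.57 FPKM in siNT and 19.0 FPKM in siPAX9, GRHL1 at 3.45 and 12.1 FPKM, and OVOL2 at 3.06 and 6.70 FPKM. TP63, named here after its values were seen, was at 35.4 FPKM in siNT and 25.3 FPKM in siPAX9. It was the single gene of the 10 with a lower level in siPAX9.

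Markers of breast epithelium were present in both groups. Their 10 genes summed to 4331 FPKM in siNT and 5336 FPKM in siPAX9, with KRT5 at 1558 and 1807 FPKM, KRT19 under 1 FPKM in both, and EPCAM at 34.3 and 16.7 FPKM. The 6 mesenchymal markers summed to 306 FPKM in siNT and 59.2 FPKM in siPAX9, nearly all of it VIM at 301 and 53.5 FPKM. CDH2 was at 5.06 FPKM in siNT and 1.44 FPKM in siPAX9, while COL1A1 went the other way, at 0.454 and 4.13 FPKM. PDGFRB was at 0.0781 and 0.0637 FPKM, COL1A2 was listed at 0 in siNT and at 0.00337 FPKM in siPAX9, and COL3A1 was at 0 in both. Of 3 immune markers, CD3E was at 0 in both groups, PTPRC was at most 0.0922 FPKM, and CD14 was at 14.4 FPKM in siNT and 56.5 FPKM in siPAX9, in a summed level of 14.5 and 56.6 FPKM. The 3 endothelial markers summed to 2.58 FPKM in siNT and 0.516 FPKM in siPAX9, mostly PECAM1 at 2.58 and 0.495 FPKM. VWF was at 0.00221 FPKM in siNT and 0.0112 FPKM in siPAX9, and CDH5 was listed at 0 in siNT and at 0.00938 FPKM in siPAX9. The part of these markers in the desmosome values was not tested.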

How the data were processed

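Poly(A)+ RNA of MCF10A cells was sequenced as single-end reads in 3 siNT and 3 siPAX9 samples. Per the study's methods and the submitters' processing notes, the authors used Bowtie 2 for alignment (UCSC hg19) and Cufflinks for quantification, inside Partek Flow. The authors deposited 1 FPKM per group and locus. The normalization between libraries, and whether strand was used in counting, is not given in the sources used here. The table also holds the authors' log2 fold change, test statistic, p-value and q-value for each locus, which were not used. Values per sample were not analysed here. The study's methods give total reads only as a range over the 6 samples, and the table gives no read counts. The reads behind a single FPKM, and so its precision, could not be recovered, and no interval or detection floor was computed.

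The table has 41656 rows, of which 27678 carry a symbol. Where a symbol was on several rows, the row with the highest mean FPKM was taken. The log2 ratio is that of FPKM in siPAX9 over siNT with nothing added. The limit of 2-fold is that of the study's methods, which joined it with a limit on the q-value that was not used here. The counts here are therefore not the study's calls. Expressed genes are those with a mean of at least 1 FPKM over the groups. With 1 combined value per group, no test was run. Positions came from the GENCODE annotation of release 44 on GRCh37, and start sequences from RefSeq on GRCh38.p14, and coordinates of the 2 builds were kept apart. The ratio, count and motif steps were tested on simulated data with known answers.

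The 10 genes and the lists were chosen with earlier results of these data known. All 10 are named, with every member of a list of 6 or fewer genes and, of longer lists, those at least 2-fold apart with a mean of at least 1 FPKM, up to 6 a list. Some genes and motifs of the lists are not reported here and were left out of the list counts. Alternatives were 1 or 0.1 added to each FPKM, centring, scaling to equal sums, other folds, other minimum levels and other choices of row. Python 3.11.15, numpy 2.4.6, pandas 2.3.3 and matplotlib 3.10.9 were used.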

Additional observations from a re-analysis of the deposited data

Results flagged for a closer look

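Within 50 kb of the 10 genes, 11 loci without a gene symbol were listed, and 8 of them reached at least 1 FPKM in siPAX9 with a higher value there than in siNT. They are given because no comparison above uses them. All 11 were higher in siPAX9, beside 54.9% of the 13978 loci without a symbol in the whole table. The 11 lay near DSP, CDSN, PKP1 and JUP only, most of them near DSP, and several lay close together. Those starting at 7516855 and 7517886 fall in the same annotated gene. The 11 are therefore not independent of each other, and whether neighbouring loci belong to 1 transcript was not tested. Near DSP on chromosome 6, the locus starting at 7517886 was at 81.0 FPKM in siNT and 129 FPKM in siPAX9, and the one at 7516855 was at 23.3 and 30.2 FPKM. The locus at 7540586, which overlaps the annotated start of DSP, was at 1.92 FPKM in siNT and 2.20 FPKM in siPAX9. Beyond the end of DSP, the locus at 7617542 was at 0.237 FPKM in siNT and 1.08 FPKM in siPAX9, that at 7618810 at 0.0919 and 1.10 FPKM, and that at 7624526 at 0.202 and 1.33 FPKM. Near PKP1 on chromosome 1, the locus at 201346963 was at 0.624 FPKM in siNT and 2.48 FPKM in siPAX9. Near CDSN on chromosome 6, the locus at 31034765 was at 0.1003 FPKM in siNT and 1.63 FPKM in siPAX9. With 1 value per group these differences were not tested.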

How the results depend on the processing

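Of 60 values, the log2 ratios of the 10 genes under 6 other settings, 53 kept their sign and their side of the 2-fold line. Summing all rows of a symbol, or taking single-symbol rows only, could not change a value and left all 10 the same. Each of the 10 rows held 1 symbol, and the other rows of CDSN were at 0. Of the 10, 9 stayed the same with 0.1 added, and 8 with 1 added, after centring and after scaling. DSG2 reversed, to 0.049 after centring and 0.17 after scaling to equal sums. JUP passed 2-fold in the same settings, and PKP1 (0.12 with 1 added, 0.81 with 0.1 added) and CDSN (0.79 with 1 added) dropped under it. The number of the 10 genes at least 2-fold higher was 5 as deposited, 6 after centring or scaling, 4 with 0.1 added, 3 with 1 added, 7 at a fold of 1.5 and 1 at a fold of 4. The plaque total was 1.58-fold, and 1.41-fold with PKP2, a setting chosen after seeing the data. Of all genes, 6.82% were at least 2-fold higher as deposited, 13.7% without the limit on the mean, 3.91% with a mean of at least 10 FPKM, 13.7% at a fold of 1.5 and 2.74% at a fold of 4. At least 2-fold lower were 6.90%, with 16.7% at a fold of 1.5 and 1.56% at a fold of 4. The GC box, KLF and AP-1 counts over the 9 windows were 6, 8 and 1 also in the 250 bases before the start alone. No paired analysis was possible because the table gives 1 combined value per group, and leaving out a sample was not run for the same reason. The reads behind each value are unknown, so what depth limits could not be measured. PKP1 was under 1 FPKM in both groups and CDSN in siNT.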
